A study of Xiphophorus maculatus with 32 samples.

Results

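The skin response of *X. maculatus* to 500–510 nm light, the shortest of 5 wavebands of 10 nm, was examined in 2 exposed fish against the 2 unexposed fish of the same experiment. Members were the transcripts that moved in both exposed fish. A transcript counted as moved up when the lower exposed fish lay at least 1 log2 unit, a 2-fold difference, above the higher control fish, and as moved down in the reverse case. Levels are CPM, raw counts scaled to the total of the library after its adjustment by TMM. The log2 values carry a prior count of 2 that damps low transcripts. Of 16034 transcripts with enough reads to be tested, 434 moved (2.71%). These were 347 up and 87 down.

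All fish were mature males of the Jp 163 B line of *X. maculatus*, 10 to 11 months old and from the 105th generation of brother-sister mating, so they stand for 1 inbred stock and 1 sex. Exposed fish spent 14 h in the dark before the light and 6 h in the dark after it, and the skin was then dissected. Wavebands were given to single fish in a small cuvette with a xenon lamp and a monochromator. Fluorescent light was given in a closed box with lamps on both sides. The other 10 nm wavebands ran in 4 steps between 510 and 550 nm, with 2 fish each, and the wider 500–550 nm waveband (2 fish) belonged to a second experiment with 2 control fish of its own. These pairs of unexposed fish are called the 10 nm controls and the 50 nm controls. The 500–550 nm waveband was 1 of 6 wavebands of 50 nm between 300 and 600 nm, and fluorescent light was a further exposure, with 2 fish each. The light dose was not held equal. It fell from 500–510 to 540–550 nm and was lower for 500–550 nm than for 500–510 nm. Over the series it was lowest for 300–350 nm and highest for fluorescent light. The effect of dose was not tested. The study's methods describe the control fish in different ways, as fish taken from the dark with no handling and as fish drawn at random from the same flasks and kept like the exposed ones. Where the first holds, light and handling cannot be told apart. Sham-exposed fish were not analysed here. The study did compare them with unexposed fish, and it took the genes that differed out of its comparisons ahead of its functional analysis.

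Each library came from 1 fish. The 500–510 nm libraries held 16117908 and 14904592 counts, and the 10 nm controls held 15555908 and 30502623. The 12 libraries of the experiment ranged from 12835091 to 30502623 counts. With 2 fish a group, p-values measure the spread between these fish only. In bulk skin, fewer cells of a type and less RNA per cell cannot be told apart.

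Fish skin senses light without the eyes. Its cells carry opsins and cryptochromes, and light reaching them can set the peripheral clock and induce DNA repair enzymes such as photolyases. The 500–510 nm waveband is blue-green light, close to where the rod opsin of many vertebrates absorbs best. Cryptochromes, by contrast, absorb mainly in the blue.

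The 10 nm controls stood apart from every other library at the transcripts that moved, and this bears on each result given here. The up members lay 1.41 and 1.38 log2 units above the mean of the 10 nm controls in the 500–510 nm fish (medians over 347 transcripts). They also lay 1.07 and 1.29 units above it in the 50 nm controls, which had seen no light. The down members lay 1.52 and 1.38 units below that mean in the 500–510 nm fish, and 1.20 and 1.08 units below it in the 50 nm controls. Across the 24 libraries that the choice of members did not use, the median of the up members ranged from 0.70 to 1.95, and that of the down members from -2.41 to -0.82. For 268 of the 347 up members, all 24 of those libraries exceeded both 10 nm controls, and for 51 of the 87 down members all 24 lay below both. The choice of members used these 2 control fish, so it takes in transcripts at which they were extreme. The same counts were not made over all tested transcripts, so how far the choice alone accounts for them was not tested. The experiment, its exposures and its control fish cannot be told apart in this contrast.

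**Figure D1:**
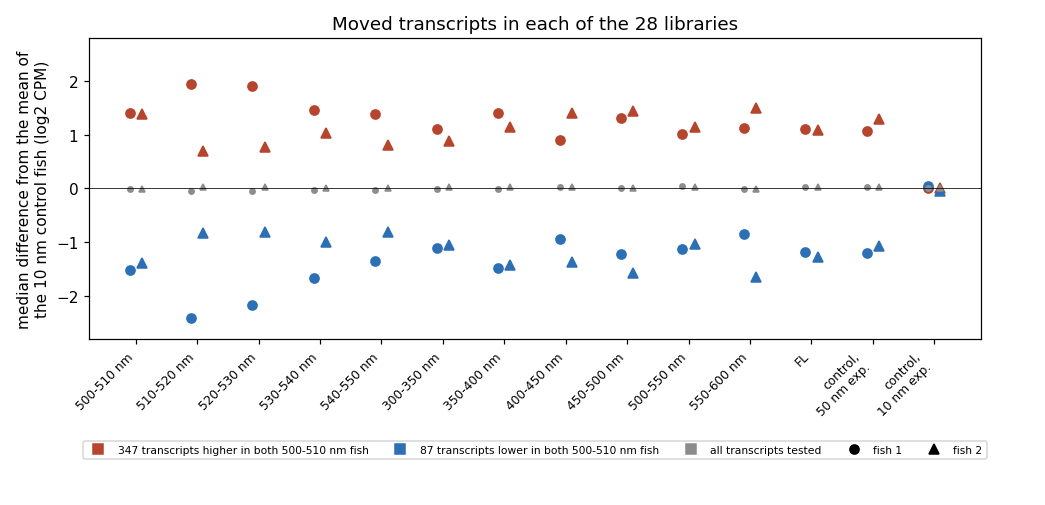
Median difference of the moved transcripts from the mean of the 10 nm control fish, in log2 CPM, for each of the 28 distinct libraries (circle, fish 1; triangle, fish 2). Exposed fish and the 50 nm controls lie on the same side for both sets of members, with the up members between 0.70 and 1.95, and only the 10 nm controls, which define 0, lie near it; FL is fluorescent light.

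In the test of 500–510 nm fish against the 10 nm controls, 536 transcripts rose and 175 fell (edgeR quasi-likelihood test on the 4 fish, Benjamini-Hochberg adjusted p under 0.05 and at least 2-fold). These are 3.34% and 1.09% of the 16034 tested. As the choice of members used the same 4 fish, it is only a description that 340 of the 347 up members (2.16% of all tested) and 81 of the 87 down members (0.543%) were among them. The other 13 members were not called, and 290 called transcripts were not members. The margin of the members, that is the distance between the nearer exposed fish and the nearer control, had a median of 1.23 log2 units and reached 3.82. It was under 1.1 for 122 members, while 136 other transcripts had a margin over 0.9. Of the 434 members, 20 differed by at least 2-fold between the exposed fish themselves, against 514 of all 16034. Both counts use the scale of these 4 libraries. The 502 given below for the same fish was not counted on this scale.

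**Figure D2:**
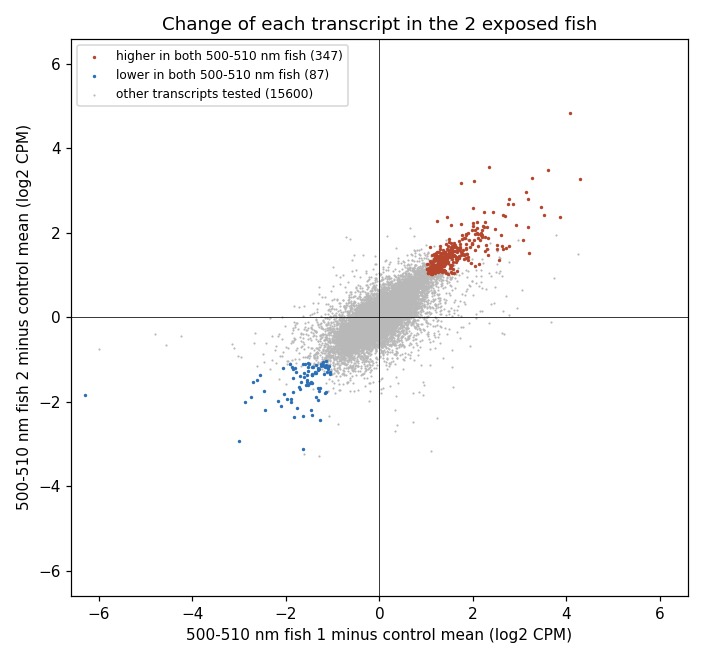
Difference of each of the 16034 tested transcripts from the mean of the 10 nm controls, in log2 CPM, in 500–510 nm fish 1 (x axis) and fish 2 (y axis). The 347 up members lie in the upper right and the 87 down members in the lower left; the other transcripts are in grey.

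The calls depended on both control fish. Without either 10 nm control, edgeR made 0 calls, with 3723 and 3954 transcripts at an unadjusted p under 0.05. In these fits the lone control was assumed to vary like the exposed pair. The log2 fold changes of the called named genes described below kept their sign, and uncalled named genes were not refitted in this way. Without control fish 1 and 2 in turn, HSPA4 had 1.77 and 1.71, against 1.75 with both. WNT5A had -0.91 and -1.36, against -1.13 with both. A single fit of the 12 libraries also made 0 calls (2328 transcripts at an unadjusted p under 0.05, lowest adjusted p = 0.0992 by edgeR), while limma with sample quality weights on the same 12 libraries called 669. Between fish of the same waveband, 3036 transcripts differed by at least 2-fold after 510–520 nm and 2022 after 520–530 nm, against 502 after 500–510 nm, 393 after 530–540 nm, 557 after 540–550 nm and 284 between the 10 nm controls. The fit of the 4 fish was chosen with this known.

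With the 50 nm controls in place of the 10 nm controls, an alternative chosen after seeing the data, 351 transcripts were higher and 440 lower in the 500–510 nm fish (2.15% and 2.69% of 16329, 4.84% together, edgeR quasi-likelihood test). Only 70 of the 711 original calls were made again in the same direction. Of the members, 37 of 347 up members were called up and 5 down, and 8 of 77 tested down members were called down and 1 up. The median log2 fold change was 0.21 for up members and -0.42 for down members. The 500–510 nm fish of this contrast were used to choose the members, so these member values are in part fixed by the choice. Compared with the 50 nm controls, the 10 nm controls themselves differed in 982 transcripts that were higher and 1100 that were lower (5.94% and 6.65% of 16545, 12.6% together). Among these were 215 of 340 tested up members that were lower and 7 that were higher, and 52 of 87 down members that were higher. The 10 nm controls were used to choose the members, so these member counts are in part fixed by the choice.

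**Figure D3:**
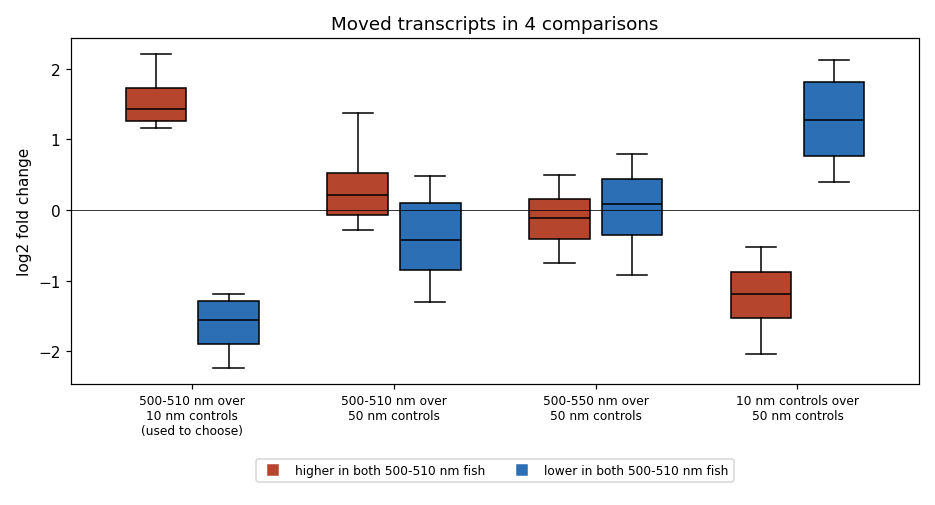
Log2 fold changes of the moved transcripts in 4 comparisons (edgeR; box, quartiles with the median; whiskers, 10th to 90th percentile). The first pair was used to choose the members. Against the 50 nm controls the 500–510 nm fish, which were used in the choice, have medians of 0.21 and -0.42. The 10 nm controls, also used in the choice, have medians of -1.19 and 1.27.

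Names were paired with few transcripts. Part of the study's panel of light-responsive targets and housekeepers gave names to 63 of them. The counts hold 25 named coding sequences, and of the 88 together 80 could be tested. The panel had been picked from earlier light studies of this fish, so its calls are not a sample of the skin transcriptome. Of the 80, 13 were called, 8 up and 5 down (16.2%, against 4.43% of all transcripts tested), and 8 were members. In the 12-library fit the adjusted p of these 13 ran between 0.0992 and 0.478 (edgeR). Of the 13, CREB5 (adjusted p = 0.0973), NOS2 (0.151) and CRY2 were no longer called without exposed fish 1. Without exposed fish 2, CRY2 was lost, and YWHAQ (0.99) and CHK1 (0.90) came under the limit of 1 log2 unit. Against the 50 nm controls 12 of them could be tested, 1 was called in the same direction and 5 had the opposite sign.

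Of 9 named transcripts for the cell cycle and mitosis, 3 rose and none fell, against 3.34% and 1.09% of all transcripts tested. The median log2 fold change of the 9 was 0.57, against 0.0030 for all transcripts tested. CDKN1A (ENSXMAT00000001085), the p21 inhibitor that halts cell division, had 6.94 and 7.86 CPM in the 500–510 nm fish and 3.0 and 3.14 CPM in the 10 nm controls. Both exposed fish lay above both controls, and the log2 fold change was 1.28 (standard error 0.20, adjusted p = 0.0133 by edgeR). The 50 nm controls, however, held 5.85 and 11.5 CPM, a span that takes in both exposed fish. CHK1 (ENSXMAT00000010964), the checkpoint kinase that stalls the cycle when replication is blocked, had 16.1 and 18.9 CPM after 500–510 nm and 9.00 and 8.52 CPM in the 10 nm controls (log2 fold change 1.02, standard error 0.15, adjusted p = 0.0121 by edgeR). CDC47 (ENSXMAT00000005334), a name for MCM7 of the replicative helicase, had 50.7 and 69.6 CPM in the exposed fish and 28.6 and 21.3 CPM in the 10 nm controls (1.30, standard error 0.21, adjusted p = 0.0151 by edgeR). The 50 nm controls, at 17.2 and 23.0 CPM for CHK1, overlapped the exposed fish, and at 73.7 and 101 CPM for CDC47 they exceeded both. Against the 50 nm controls all 3 log2 fold changes had the opposite sign (CDKN1A -0.22, CHK1 -0.19, CDC47 -0.53). The smallest value of the list was that of G2E3, a G2/M phase ubiquitin ligase, at -0.23 (adjusted p = 0.779).

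Among 5 stress and redox transcripts, 1 rose and 1 fell. HSPA4 (ENSXMAT00000001625), a chaperone of the HSP110 family that helps HSP70 to refold proteins, had 53.2 and 45.5 CPM in the 500–510 nm fish and 15.1 and 14.6 CPM in the 10 nm controls. This was a 3.38-fold rise with little spread inside either pair (log2 fold change 1.75, standard error 0.12, adjusted p = 0.00332 by edgeR). The 50 nm controls stood at 34.6 and 38.8 CPM, below both exposed fish, and against them the log2 fold change was 0.44 (adjusted p = 0.0666 by edgeR). NOS2 (ENSXMAT00000002554), the inducible nitric oxide synthase of inflamed tissue, was nearly silent after 500–510 nm, with 1 and 4 counts, or 0.061 and 0.26 CPM, against 13 and 34 counts, or 0.85 and 1.11 CPM, in the 10 nm controls. The fitted log2 fold change, -2.59 (standard error 0.60, adjusted p = 0.0402 by edgeR), rests on these few counts. HMOX1, heme oxygenase 1, which degrades heme under oxidative stress, showed 47.3 CPM in exposed fish 1 and 11.1 CPM in exposed fish 2, against 9.00 and 9.14 CPM in the 10 nm controls. Both exposed fish lay above both controls, fish 2 only narrowly, and the gene did not pass the test (adjusted p = 0.115 by edgeR).

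Of 6 transcripts for insulin, MAPK signalling and metabolism, YWHAQ rose and MAP2K1 fell. YWHAQ (ENSXMAT00000002966), a 14-3-3 adaptor that holds phosphorylated signalling proteins, was the most abundant of the called genes, with 413 and 444 CPM in the 500–510 nm fish and 209 and 211 CPM in the 10 nm controls (log2 fold change 1.05, standard error 0.10, adjusted p = 0.0038 by edgeR). MAP2K1 (ENSXMAT00000003526), the MEK1 kinase that activates ERK, had 11.1 and 11.1 CPM after exposure and 34.8 and 31.0 CPM in the 10 nm controls, 2.92-fold lower (log2 fold change -1.55, standard error 0.13, adjusted p = 0.00332 by edgeR). In the 50 nm controls it was lower still, at 6.48 and 9.69 CPM. IRS2, an adaptor of the insulin receptor, repeated the pattern of HMOX1 with 46.6 and 16.3 CPM in the exposed fish and 7.76 and 13.4 CPM in the 10 nm controls (adjusted p = 0.0899 by edgeR).

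Among 7 transcripts of Gq, calcium and PKC signalling, PRKCB fell and none rose. PRKCB (ENSXMAT00000005357), protein kinase C beta, had 14.5 and 15.9 CPM in the 500–510 nm fish and 34.5 and 33.0 CPM in the 10 nm controls (log2 fold change -1.13, standard error 0.12, adjusted p = 0.00523 by edgeR). A second row that carries this name had under 1 CPM in all 4 fish, and reads shared between such rows could be split. GNA15, a Gq-class alpha subunit, had the largest value of the list, 0.89 (adjusted p = 0.0269), under the 2-fold limit. ITPR3, the inositol trisphosphate receptor that releases stored calcium, likewise passed on p alone, at -0.79 (adjusted p = 0.0139 by edgeR).

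Of the 4 receptors and transcription factors, CREB5 (ENSXMAT00000001067), a factor that binds cAMP response elements, rose. It had 4.11 and 3.54 CPM after 500–510 nm and 1.57 and 1.70 CPM in the 10 nm controls (log2 fold change 1.24, standard error 0.24, adjusted p = 0.0258 by edgeR), while the 50 nm controls had 1.82 and 3.19 CPM. FOXN1, a factor of epidermal differentiation in mammals, had the smallest value, -0.90 (adjusted p = 0.162). In the list for matrix and epidermis, TGM8 (ENSXMAT00000009163), of the transglutaminase family that cross-links proteins, had 49.0 and 42.3 CPM in exposed fish and 13.7 and 14.8 CPM in the 10 nm controls (1.69, standard error 0.13, adjusted p = 0.00332 by edgeR). WNT5A (ENSXMAT00000002625), a secreted Wnt ligand, fell, with 21.2 and 23.2 CPM in exposed fish against 56.9 and 42.0 CPM in the 10 nm controls (-1.13, standard error 0.17, adjusted p = 0.0126 by edgeR). For WNT5A and ENSXMAT00000020266 the 50 nm controls did not both lie beyond the 10 nm controls on the side of the exposed fish. For the other 11 called genes they did. These genes were called with the 10 nm controls, so this count is in part fixed by the choice. It was not made over all tested transcripts.

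None of 4 clock transcripts and none of 6 transcripts for DNA damage and repair was called by edgeR, with 0 and 2 of them at an unadjusted p under 0.05, against 5168 of all 16034 transcripts. CRY2A, a cryptochrome, had 36.0 and 34.3 CPM in the exposed fish and 37.9 and 29.7 CPM in the 10 nm controls, which overlap. The 50 nm controls, at 15.5 and 17.6 CPM, lay below both exposed fish (1.09 against them, adjusted p = 0.0132 by edgeR). NR1D4, a fish member of the Rev-erb family of clock repressors, had the smallest clock value at -0.98 (adjusted p = 0.18). A further row named CRY2 fell among 17 tested coding sequences, with 1.23 and 1.51 CPM in the exposed fish against 3.91 and 3.0 CPM in the 10 nm controls (-1.30, standard error 0.29, adjusted p = 0.0354 by edgeR). At 0.38 and 0.73 CPM, the 50 nm controls lay below both exposed fish, which turned the sign (1.29 against them, adjusted p = 0.0803 by edgeR). The call was also lost without exposed fish 1 (adjusted p = 0.128) or fish 2 (0.068), and in the fit blocked by replicate number (0.0528). GADD45B, a growth arrest gene, stood at 0.99 (adjusted p = 0.21) and PIF1, a helicase, at -0.50 (adjusted p = 0.289). CALR3_1of2, a calreticulin-type calcium chaperone, was the highest of the coding sequences, at 0.95 (adjusted p = 0.0106). CYP1A1, the enzyme that oxidises aryl hydrocarbons, had too few reads for the test. It had 8 and 33 counts after 500–510 nm and 2 and 1 counts in the 10 nm controls, and it was called after 530–540 nm (log2 fold change 4.47, adjusted p = 0.0111 by edgeR) and 540–550 nm (5.45, adjusted p = 0.0114).

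Of the 10 panel housekeepers, 1 rose. ENSXMAT00000020266, which the panel names by a genomic clone, had 12.5 and 10.2 CPM in the 500–510 nm fish and 3.07 and 2.35 CPM in the 10 nm controls, higher by 2.11 on the log2 scale (standard error 0.22, adjusted p = 0.00522 by edgeR). The 50 nm controls held 1.61 and 2.38 CPM, so all 4 unexposed fish lay below both exposed fish, and of the 13 called genes it was the 1 called against either pair (2.50 against the 50 nm controls, adjusted p = 0.0115 by edgeR). It was higher still after 500–550 nm, at 52.8 and 32.5 CPM. PCP4, a calmodulin-binding peptide, had the smallest housekeeper value, at -1.23 (adjusted p = 0.0956). Among 9 other panel genes none was called, with 4 at an unadjusted p under 0.05, and the extremes were SYBU, which links vesicles to kinesin, at 1.28 (adjusted p = 0.0582) and KLHL38, of the kelch-like family, at -1.45 (adjusted p = 0.0915 by edgeR). KLHL38 had 0.80 and 2.03 CPM in the 500–510 nm fish against 2.87 and 4.77 CPM in the 10 nm controls, whereas the 50 nm controls held 0.34 and 0.20 CPM.

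**Figure D4:**
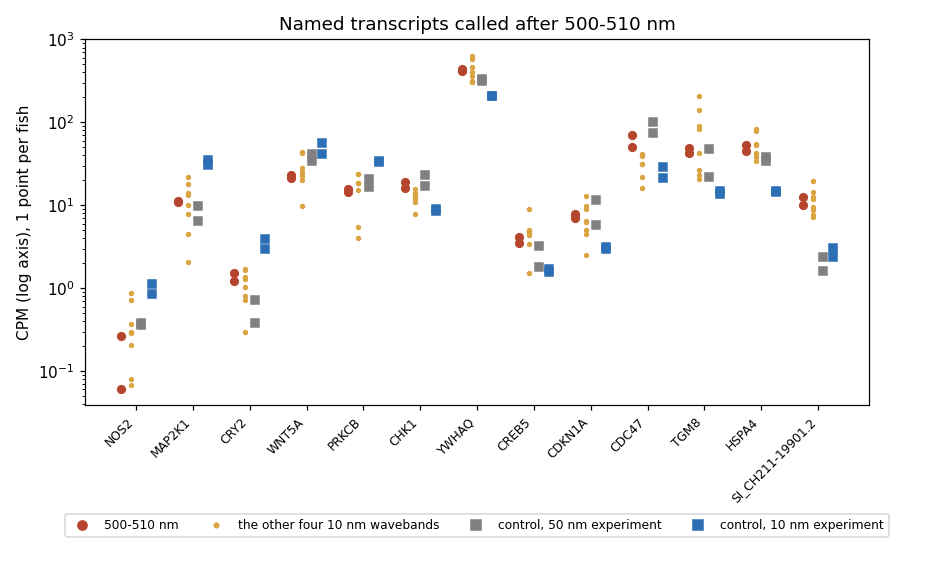
CPM (log axis) of the 13 named transcripts called after 500–510 nm, 1 point a fish, with genes ordered from the largest fall to the largest rise, which is ENSXMAT00000020266 under its clone name. Exposed and 10 nm control fish are separate at each gene, and the 50 nm controls lie farther from the 10 nm controls than both exposed fish at CDC47, MAP2K1 and CRY2.

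The 5 named markers examined for other cell types that dissected skin can hold were detected and none was called by edgeR, with 1 at an unadjusted p under 0.05. These were MYL2B for muscle, DSCAML1 for neurons, LCP2A for leukocytes, and FLT4 and TMEM204 for vessels. Their summed level was 201 and 190.2 CPM in the 500–510 nm fish and 220.2 and 199 CPM in the 10 nm controls. DSCAML1 was the 1 that passed on p, at -0.73 (adjusted p = 0.0442 by edgeR), under the 2-fold limit. No keratin or pigment enzyme is among the named transcripts, so the label of the tissue could not be checked against such defining markers. FOXN1, which the epidermis shares with the thymus, was detected in all 4 fish, at 3.81 and 8.71 CPM after exposure and 10.1 and 13.3 CPM in the 10 nm controls.

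Most members have no name, 426 of 434. The largest rise among members with a mean of at least 1 CPM was that of ENSXMAT00000019314, with 12.3 and 20.8 CPM in the 500–510 nm fish and 0.78 and 0.52 CPM in the 10 nm controls (log2 fold change 4.74, standard error 0.38, adjusted p = 0.00332 by edgeR). It was 3.31 and 5.33 CPM in the 50 nm controls, and against these it was also called (1.94, adjusted p = 0.022). ENSXMAT00000002807 had 22.2 and 10.7 CPM after exposure and 0.98 and 1.11 CPM in the 10 nm controls (3.97, standard error 0.42, adjusted p = 0.00522 by edgeR). The 50 nm controls held 30.5 and 21.2 CPM of it. The largest fall was that of ENSXMAT00000004775, with 0.25 and 0.26 CPM in the exposed fish against 2.41 and 3.07 CPM in the 10 nm controls (-3.40, standard error 0.38, adjusted p = 0.00588 by edgeR), and 1.19 and 1.53 CPM in the 50 nm controls, against which it was called too (-2.39, adjusted p = 0.0224). ENSXMAT00000003757 followed, with 1.35 and 1.64 CPM after exposure and 4.44 and 14.1 CPM in the 10 nm controls (-2.65, standard error 0.59, adjusted p = 0.0369 by edgeR). In the 50 nm controls it was 2.88 and 1.05 CPM, so the groups overlapped there.

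In the other four 10 nm wavebands the members lay on the same side as after 500–510 nm. The median log2 difference of the up members from the 10 nm controls was 1.38 after 500–510 nm. It was 1.33 in each of the 510–520 and 520–530 nm groups, 1.25 in the 530–540 nm group and 1.09 in the 540–550 nm group. For the down members the medians were -1.51, -1.64, -1.61, -1.38 and -1.05 from the shortest waveband to the longest. Over all tested transcripts they lay between -0.017 and -0.0088. All 5 comparisons share the 2 control fish that chose the members, so a common direction is in part fixed by the choice. For 306 of the 347 up members all 8 fish of the other wavebands exceeded both 10 nm controls, and for 70 of the 87 down members all 8 lay below both. These counts, too, were not made over all tested transcripts. The members were also chosen with 1 control fish and the waveband set against the other. The medians of the up members then lay between 0.90 and 1.23 and those of the down members between -1.54 and -0.65. Both control fish belong to the same experiment, so a shift that they share remains in this split. Whether light or such a shift set the common direction was not tested.

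The members were chosen because both 500–510 nm fish moved alike, and the pairs of the other wavebands, which the choice did not use, spread more at them. The median of the up members was 1.95 in fish 1 and 0.70 in fish 2 after 510–520 nm, and 1.91 and 0.78 after 520–530 nm. It was 1.45 and 1.02 after 530–540 nm, and 1.37 and 0.81 after 540–550 nm. edgeR called 0 transcripts after 510–520 nm and 0 after 520–530 nm, where 2474 and 3076 transcripts had an unadjusted p under 0.05. Without fish 2, 4192 were called after 510–520 nm and 2873 after 520–530 nm, and without fish 1, 135 and 0. The lone exposed fish was then assumed to vary like the controls. After 530–540 nm, 473 transcripts rose and 545 fell (2.97% and 3.43% of 15904, 6.4% together), among them 274 of 332 tested up members, which rose, and 54 of 86 tested down members, which fell. After 540–550 nm, 298 rose and 226 fell (1.86% and 1.41% of 16050, 3.26% together), with 191 of 328 tested up members among the rises and 31 of 87 down members among the falls. Without 530–540 nm fish 1 there were 383 calls in place of 1018. After 540–550 nm, in place of 524 there were 176 without exposed fish 1, 1152 without exposed fish 2, 152 without control fish 1 and 99 without control fish 2.

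Gene by gene, HSPA4 stood high in all 8 of these fish, between 34.3 and 83.4 CPM, and was called after 530–540 nm (1.71, adjusted p = 0.00227 by edgeR) and 540–550 nm (1.63, adjusted p = 0.0166). TGM8 ranged widely, from 209 CPM in 510–520 nm fish 1 to 20.5 CPM in 520–530 nm fish 2, and all 8 fish exceeded both 10 nm controls. MAP2K1 ranged from 2.07 to 22.2 CPM, below both 10 nm controls throughout, and was called after 530–540 nm (-1.63, adjusted p = 0.00582) and 540–550 nm (-1.45, adjusted p = 0.0197). CDC47, CHK1, CDKN1A, CREB5, NOS2 and WNT5A were not beyond both controls in every fish. CDC47 lay between 16.3 and 41.2 CPM in the 8 fish, a span that takes in both 10 nm controls, and CHK1 had 7.92 CPM in 540–550 nm fish 2, below both. CDKN1A had 2.48 CPM in the same fish and CREB5 had 1.54 CPM in 520–530 nm fish 2, each below both 10 nm controls, and NOS2 had 0.88 CPM in 530–540 nm fish 1, between them. WNT5A had 42.9 and 44.0 CPM in fish 2 of 510–520 and 520–530 nm, between the 10 nm controls. YWHAQ (306 to 641 CPM) and ENSXMAT00000020266 (7.28 to 19.5 CPM) exceeded both 10 nm controls in all 8 fish. PRKCB (4.07 to 23.6 CPM) and CRY2 (0.29 to 1.68 CPM) lay below both. Of the unnamed transcripts, ENSXMAT00000019314 and ENSXMAT00000002807 exceeded both in all 8, and ENSXMAT00000003757 and ENSXMAT00000004775 lay below both. The fall of ENSXMAT00000004775 was smaller there, at log2 fold changes of -1.16 to -0.55, and it was not called. All these genes were called with the same 10 nm controls, so their side of those controls is in part fixed by that choice.

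Set directly against the other wavebands, without any control fish, 500–510 nm differed in 1 transcript. edgeR called 0 transcripts against 510–520 nm, 0 against 520–530 nm, 1 against 530–540 nm (0.0063% of 15883) and 0 against 540–550 nm. At an unadjusted p under 0.05 there were 573, 417, 1634 and 1387 transcripts in that order, and the 12-library fit called 0 in each. A p that misses the threshold with 2 fish a group does not show that the wavebands act alike. The up members, chosen for high values in the 500–510 nm fish, had median log2 fold changes of -0.091, -0.067, 0.13 and 0.27 in these 4 contrasts, and the down members -0.11, -0.049, -0.24 and -0.42. The medians of all tested transcripts lay between -0.015 and 0.0075. Leaving out 1 fish raised the calls to as many as 808 against 510–520 nm (without its fish 2), 173 against 530–540 nm (without 500–510 nm fish 2) and 47 against 540–550 nm (without 500–510 nm fish 2).

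The transcript called against 530–540 nm was ENSXMAT00000016142, an up member with no name. It had 37.8 and 30.1 CPM in the 500–510 nm fish and 0.13 and 0.27 CPM in the 530–540 nm fish (log2 fold change 7.33, standard error 0.31, adjusted p = 0.0044 by edgeR), with 11.4 and 6.30 CPM in the 10 nm controls. Without either 530–540 nm fish there were 0 calls in this contrast. It was 1 of 5 up members that fell after 530–540 nm, a set picked after its values were seen. These transcripts varied in step and strongly between fish of 1 group. ENSXMAT00000016142 had 2.97 and 94.5 CPM in the 500–550 nm fish, 1.74 and 52.8 CPM after 450–500 nm, 129.5 and 6.03 CPM after 510–520 nm, and 0.72 and 0.89 CPM in the 50 nm controls. Over the 28 libraries it ranged from 0.13 to 129.5 CPM, and each of the other 4 fell under 1 CPM in at least 12 libraries.

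**Figure D5:**
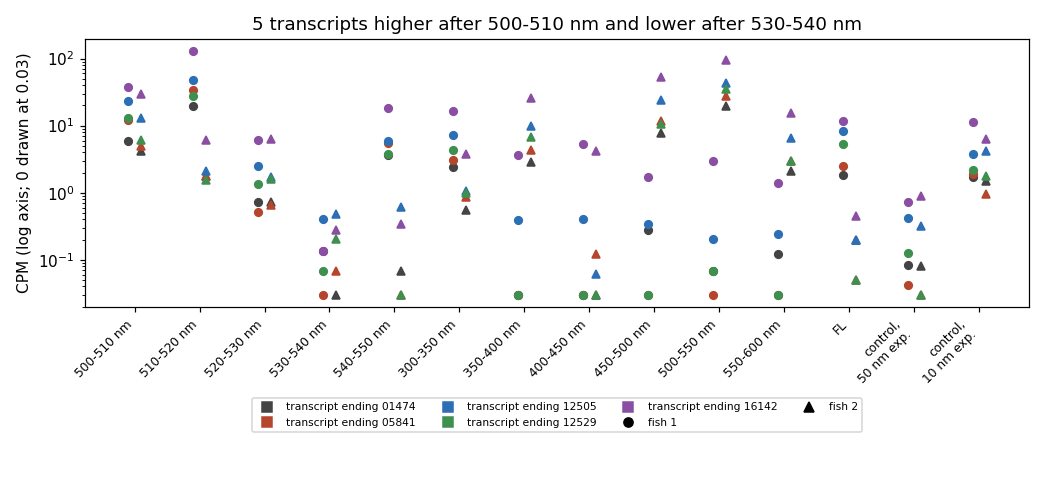
CPM (log axis, 0 drawn at 0.03) in the 28 libraries of the 5 transcripts that were higher after 500–510 nm and lower after 530–540 nm than in the 10 nm controls, named by the last 5 digits of their identifiers. They rise and fall together, and the fish of 1 exposure often lie far apart, as after 450–500 and 500–550 nm.

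The wider 500–550 nm waveband gave an independent reading, since its 2 exposed fish and its controls took no part in choosing the members. There 503 transcripts rose and 475 fell against the 50 nm controls (3.05% and 2.88% of 16486, 5.93% together, edgeR quasi-likelihood test). Of 336 tested up members 8 rose and 17 fell, shares of 2.38% and 5.06%, and their median log2 fold change was -0.11. Of 80 tested down members 5 rose and 4 fell, with a median of 0.092. The median of all tested transcripts was 0.0036. The calls came to 436 without 50 nm control fish 1 and 110 without fish 2, in place of 978. HSPA4, with 70.6 and 73.0 CPM after 500–550 nm against 34.6 and 38.8 CPM in the 50 nm controls, was higher there as well but under 2-fold (log2 fold change 0.96, standard error 0.12, adjusted p = 0.0109 by edgeR). CREB5 rose, with 8.91 and 6.94 CPM after 500–550 nm against 1.82 and 3.19 CPM in the 50 nm controls (1.64, standard error 0.32, adjusted p = 0.0259 by edgeR). ENSXMAT00000020266 rose too (4.4, standard error 0.32, adjusted p = 0.00536). WNT5A had 21.4 and 25.2 CPM after 500–550 nm against 34.0 and 42.1 CPM in the 50 nm controls, lower but under 2-fold (-0.71, adjusted p = 0.0358). Not all genes called after 500–510 nm kept their direction. CDKN1A had -1.31 and MAP2K1 0.12 after 500–550 nm, each with the opposite sign. At CDC47, CHK1 and CRY2 the difference between the effects, given in the closing section, was larger than the 500–510 nm effect itself. TGM8 (0.92) and PRKCB (-0.18) kept their sign.

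Set directly against the 500–550 nm fish, the 500–510 nm fish were higher in 19 transcripts and lower in 111 (0.118% and 0.689% of 16103, 0.807% together, edgeR quasi-likelihood test, chosen after seeing the data). Of the members, 3 of 347 up members were higher and 3 of 74 tested down members lower. At an unadjusted p under 0.05 there were 128 of the up members and 32 of the down members, against 2533 of all transcripts tested. Few calls do not show that the levels were alike. Both 500–510 nm fish were also used to choose the members, so the member values in this contrast are in part fixed by the choice. On the scale of the 8 libraries the up members lay 0.32 log2 units higher in the 500–510 nm fish than in the 500–550 nm fish (median), and 1.18 units lower in the 10 nm controls than in the 50 nm controls. In 1 fit of those 8 libraries the effect of 500–510 nm was higher than that of 500–550 nm in 1095 transcripts and lower in 1027 (6.6% and 6.19% of 16589, 12.8% together), and 270 of the 347 up members and 55 of the 87 down members were among them in their own direction. This difference holds the contrast that chose the members, so their count is a description. Of all tested transcripts, 13.2% differed by at least 2-fold between the 10 nm and the 50 nm controls, against 65.7% of the up members and 58.6% of the down members. The 10 nm controls were used to choose the members, so the higher shares are in part fixed by the choice.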

How the data were processed

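Skin RNA of individual fish was read as paired 125 bp reads. Per the labels and the study's methods the authors filtered the reads and mapped them with GSNAP to Ensembl cDNA, and they deposited raw counts per transcript. How reads with several matches were counted is not given in the sources used here. The 32 columns hold 28 distinct libraries, because the fluorescent light controls repeat the 50 nm controls. The members, the lists and the tests were chosen with earlier results of these data known.

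Counts were filtered with filterByExpr, scaled by TMM and tested with the quasi-likelihood test of edgeR 4.0.16 in R 4.3.3 on the 2 groups of each comparison, with Benjamini-Hochberg adjustment over all transcripts tested. Standard errors were derived from each fold change and the square root of its F statistic. Printed CPM use 1 TMM scaling of the 28 libraries. The fits were tested on simulated data. Named genes were every named transcript called or moved and the extremes of each list. Unnamed ones were the 2 largest rises and falls among called members at a mean level of 1 CPM or more. The 63 panel identifiers were read from page images of a supplement. Alternatives were DESeq2 1.42.0, limma 3.58.1 and those given in the closing section. The doses were 18.5, 17.9, 17.5, 16.9 and 16.4 kJ/m2 from 500–510 to 540–550 nm. Figures were drawn with matplotlib 3.10.9. A further marker is not reported here.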

Additional observations from a re-analysis of the deposited data

Results flagged for a closer look

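The effect of 500–510 nm against the 10 nm controls was set against the effect of 500–550 nm against the 50 nm controls in 1 edgeR fit of the 8 fish, a test chosen after seeing the data. The effects differed in 2122 of 16589 transcripts (12.8%), with 1095 higher (6.6%) and 1027 lower (6.19%) for 500–510 nm. The 10 nm and 50 nm controls differed by at least 2-fold in 2196 of the 16589 transcripts, and a difference between controls cannot be told apart here from one between exposures.

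Named genes passed the same test in both directions. The effect was higher for 500–510 nm, as a difference of log2 fold changes, at CDKN1A (2.55), KPNA2 (2.48), CDC47 (2.44), RAVER1 (2.28), GPX6 (1.86), CHK1 (1.55), INTS9 (1.13) and YWHAQ (1.04). It was lower at KLHL38 (-7.59), PFKFB1 (-2.62), CAMK1G (-2.55), ENSXMAT00000020266 (-2.34), RAB3B (-2.19), CRY2 (-2.10), MAP2K1 (-1.72), HSP90AA1 (-1.42), SORT1 (-1.34) and CRY2A (-1.03). KLHL38 gave the largest difference (adjusted p = 0.000959 by edgeR). It had 20.2 and 17.4 CPM after 500–550 nm and 0.34 and 0.20 CPM in the 50 nm controls. A difference did not require a call after 500–510 nm. RAVER1, not called there, had log2 fold changes of -0.17 after 500–510 nm and -2.50 after 500–550 nm, each against its own controls. CAMK1G, also not called, had -0.29 and 2.21, and CDKN1A, which was called, had 1.28 and -1.31.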

How the results depend on the processing

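The 711 calls of 500–510 nm against control lay between 669 and 888 with RLE size factors, no filter, the replicate block, the exact test, DESeq2 and limma. They came to 0 in the 12-library fit, in the 12-library fit with the replicate block and with the 50 nm controls added to the reference, and ranged from 0 to 858 with 1 fish left out. Leaving out 1 fish gave 0 to 4192 calls after 510–520 nm, 0 to 2873 after 520–530 nm, 383 to 1388 after 530–540 nm, 99 to 1152 after 540–550 nm and 110 to 1350 after 500–550 nm. Against the other wavebands it gave 0 to 808 calls for 510–520 nm, 0 to 173 for 530–540 nm and 0 to 47 for 540–550 nm. The 12-library fit made 0 calls after 530–540 nm, 1 after 540–550 nm and 0 against 530–540 nm. Replicate numbers were not taken as pairing the fish. The correlation of deviations was 0.019 between the 500–510 nm and control pairs. It was 0.211 and 0.123 between the 500–510 nm pair and those of 510–520 and 520–530 nm. Over all pairs of groups it ran from -0.029 to 0.633. Among the other 10 nm wavebands it ran from 0.203 to 0.633, so fish of the same number tended to deviate alike there. As a block, replicate numbers gave 1 call after 510–520 nm, 5 after 520–530 nm, 15 against 520–530 nm and 69 against 530–540 nm. The difference from the 500–550 nm effect, 2122 transcripts, ranged from 1324 (without 50 nm control fish 2) to 2336 with 1 fish left out. With a 1.5-fold threshold 1511 transcripts moved, all 434 among them, and against the mean of the controls 624 did. With members taken from control 1, the down members had medians of -0.82 after 530–540 nm and -0.65 after 540–550 nm. With the 50 nm controls in place of the 10 nm controls, CDKN1A (-0.22), MAP2K1 (0.46), CDC47 (-0.53), CHK1 (-0.19), CRY2 (1.29) and ENSXMAT00000002807 (-0.64) changed sign. Of 237 values of 17 named or leading transcripts under the alternatives, 126 were called in the same direction, 105 were not called and these 6 were reversed. The causes were not tested. Depth limits NOS2 and CYP1A1, which rest on few counts.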
